A study of Homo sapiens with 4 samples.

Results

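The MYC, MAX and MXD network was followed through 10 genes that were taken by name from the 16834 genes of the deposited table, with earlier results of these data known. They were MYC, its partner MAX, the MAX partners MXD1, MXI1, MXD3, MXD4, MNT and MGA, and the parallel pair MLX and MLXIP, and all 10 were found. Human cells labelled as the wild-type pancreatic ductal adenocarcinoma line MIA PaCa-2 were left without drug (control) or received, for 12 h, neobractatin (NBT, a natural compound of Garcinia bracteata) at 1 µM, the MEK inhibitor trametinib at 5 µM, or NBT at 1 µM together with trametinib at 5 µM (combination). The study set up these conditions to follow how the drugs act together on tumor cells. Each condition gave 1 RNA-seq library (BGISEQ-500), without a replicate, so the variation between cultures was not measured. Reads or levels of the 4 libraries are given in the order control, NBT, trametinib, combination wherever no order is named.

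The libraries held between 18776247 and 19614809 estimated reads in genes. All 6 MAPK output genes checked (DUSP6, SPRY4, SPRY2, ETV4, ETV5 and EGR1) were lower in both libraries with trametinib than in the control, with a median log2 ratio of -3.29 with trametinib and -3.13 with the combination, and all 6 passed the call used below in both. The marker check went against the cell line label. CDKN2A, a gene that MIA PaCa-2 is known to have lost, had from 249 TPM (NBT) to 342 TPM (trametinib), and VIM, usually abundant in this line, had only 11.5 TPM in the control and 26.4 TPM with the combination. The epithelial keratins KRT8 and KRT18 were abundant in the control (3799 and 3142 TPM), and PTPRC, COL1A1 and PECAM1, which mark leukocytes, fibroblasts and endothelium, stayed at 1.69 TPM or less in every library. By the call used below, KRT18 was lower and VIM higher in both libraries with trametinib than in the control, and KRT8 was lower with the combination. COL1A1 was also called higher with trametinib than in the control (98 against 45 reads, log2 ratio 1.10). The part of these marker changes in the results on the network was not tested, and in bulk RNA fewer cells of a type and less RNA per cell cannot be told apart. The libraries are therefore called by their treatments here, and the line is given only as labelled.

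MYC is a short-lived transcription factor that drives growth and cell division. It binds DNA at E-boxes only as a pair with MAX. MXD1, MXI1, MXD3, MXD4 and MNT compete for the same partner and the same sites, and they recruit the SIN3 and histone deacetylase corepressor, so they oppose MYC. MGA also pairs with MAX, within a Polycomb-type repressor complex. MLX pairs with MLXIP, also called MondoA, which responds to glucose, and it can pair with some MXD proteins as well. In tumors with active RAS signaling, ERK is known to raise MYC transcription and to stabilize the MYC protein, which RNA levels do not show.

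The sequence before the start of 3 antagonist genes is shown because MXD1, MXD4 and MXI1 had the highest log2 ratios of the members in the combination library against the control, of which that of MXD1 was called. Each run is the 250 bases before the RefSeq start (GRCh38.p14) that lies nearest to the start of the gene's most abundant transcript in the control library, written 5′ to 3′ on the gene's own strand. Capitals mark matches to 3 motifs, searched on both strands: the E-box CACGTG, the antioxidant response element core TGACNNNGC and the C/EBP-ATF response element TGATGNAA.
MXD1, chr2:69914859-69915108, plus strand: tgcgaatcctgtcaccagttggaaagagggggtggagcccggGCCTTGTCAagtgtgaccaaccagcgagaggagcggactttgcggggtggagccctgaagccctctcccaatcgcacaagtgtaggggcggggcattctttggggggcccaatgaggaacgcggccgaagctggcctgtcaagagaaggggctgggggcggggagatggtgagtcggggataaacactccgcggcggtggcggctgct
MXD4, chr4:2262110-2262359, minus strand: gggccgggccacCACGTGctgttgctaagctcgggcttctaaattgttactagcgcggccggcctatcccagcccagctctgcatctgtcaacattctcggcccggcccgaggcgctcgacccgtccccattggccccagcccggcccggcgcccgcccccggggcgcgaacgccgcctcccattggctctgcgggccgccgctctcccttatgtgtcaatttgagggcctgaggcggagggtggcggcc
MXI1, chr10:110225746-110225995, plus strand: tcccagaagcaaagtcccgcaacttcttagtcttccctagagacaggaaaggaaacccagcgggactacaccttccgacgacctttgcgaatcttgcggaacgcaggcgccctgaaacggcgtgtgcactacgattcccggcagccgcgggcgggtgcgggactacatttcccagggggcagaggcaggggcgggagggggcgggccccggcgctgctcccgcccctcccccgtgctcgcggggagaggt
The MXD1 sequence held 1 match to the antioxidant response element core, on the minus strand, beginning at position -208 from the start. The MXD4 sequence held 1 E-box, beginning at position -238. The MXI1 sequence held none of the 3 motifs in this window. Among the other members with a matched start, MNT had an E-box at position -193 and MLX at position -50, and MAX, MXD3, MGA and MLXIP had no match. Over 35116 windows of the same length, 6.34% held the E-box, 10.9% the antioxidant core and 3.14% the C/EBP-ATF element. A match of these letters is a description of the sequence and not a binding site. No MYC sequence was used.

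MYC, on chromosome 8 (127735434 to 127742951, GRCh38), was the member that moved most with trametinib. The control library held 913 MYC reads, the NBT library 1297, the trametinib library 170 and the combination library 586, or 25.5, 33.6, 4.65 and 15.2 TPM. Trametinib alone thus gave the lowest level, NBT alone the highest, and the combination lay between trametinib and the control. Against the control, MYC was 5.41-fold lower with trametinib (95% counting interval from 4.60 to 6.42), 1.63-fold lower with the combination (from 1.47 to 1.81) and 1.37-fold higher with NBT (from 1.26 to 1.495). When NBT was added to trametinib, MYC was 3.32-fold higher than with trametinib alone (from 2.80 to 3.97). When trametinib was added to NBT, MYC was 2.23-fold lower than with NBT alone (from 2.02 to 2.47). These intervals are exact binomial intervals of the ratio of 2 counts, scaled to the library sums, and they cover counting error only.

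A gene was called changed between 2 libraries when an exact binomial test of the counts passed a Benjamini-Hochberg limit of 0.05 over all genes tested and the absolute log2 ratio was at least 1, as the study's methods set for their Poisson test. MYC passed as lower with trametinib (log2 ratio -2.43), where it was the 1 called member of 10, against 6.13% of 16199 genes called in all (3.85% higher and 2.28% lower). It passed as higher in the combination against trametinib (1.73), and as lower in the combination against NBT (-1.16), where it was again the 1 called member, against 4.54% of 16253 genes (2.38% higher and 2.16% lower), while the log2 ratios of -0.70 (combination against control) and 0.46 (NBT against control) stayed short of the limit. Among all genes tested, MYC stood at the 1.08 percentile of log2 ratios with trametinib and at the 84.6 percentile with NBT. Since the test compares libraries and not conditions, no p-value is given. When the cultures were assumed to vary with a coefficient of variation of 0.2 (negative binomial test), MYC remained called with trametinib and in the combination against trametinib, and with 0.4 no member was called in any comparison.

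**Figure D1:**
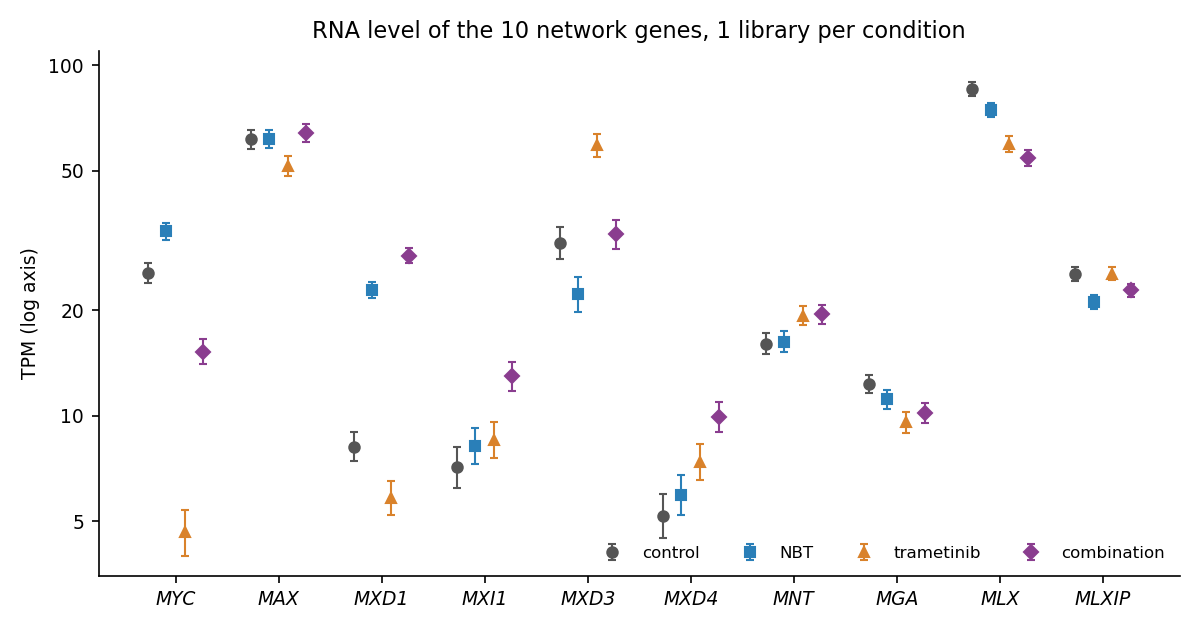
RNA level in TPM (log axis) of the 10 network genes in the 4 libraries, 1 point per library, with 95% exact Poisson counting intervals as bars. MYC ranges from 4.65 TPM with trametinib to 33.6 TPM with NBT, and MXD1 from 5.84 TPM with trametinib to 28.7 TPM with the combination, whereas MAX stays between 51.6 and 64.1 TPM.

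MAX, the shared partner of MYC and the MXD proteins, varied little. It had 1021, 1134, 877 and 1130 reads in the control, NBT, trametinib and combination libraries. The trametinib library was the lowest, with a log2 ratio of -0.23 against the control (from -0.36 to -0.10), and the intervals for NBT (from -0.02 to 0.22) and the combination (from -0.04 to 0.21) included 0. MYC TPM was 0.414, 0.544, 0.0902 and 0.237 times that of MAX in the 4 libraries, so MAX RNA exceeded MYC RNA in every library.

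MXD1, on chromosome 2 (69915109 to 69942945), is an antagonist known to rise when cells leave the cycle and differentiate. MXD1 reads numbered 433 (control), 1314 (NBT), 318 (trametinib) and 1631 (combination), or 8.16, 22.9, 5.84 and 28.7 TPM. Both libraries with NBT lay above both libraries without it. MXD1 passed as higher with NBT (2.93-fold, from 2.63 to 3.28) and with the combination (3.60-fold, from 3.24 to 4.02), as the 1 called member of 10 in each case, against 2.76% of 15891 genes with NBT (1.63% higher and 1.13% lower) and 8.72% of 16233 with the combination (4.89% higher and 3.83% lower). These comparisons and that of trametinib share the control library. In the combination against trametinib it was 4.95-fold higher (from 4.39 to 5.61), and there MYC and MXD1 were the 2 members called, against 6.37% of 16345 genes (2.64% higher and 3.73% lower). With trametinib alone MXD1 was 1.37-fold lower than in the control (from 1.19 to 1.59), which is under the limit. Its upstream window, shown above, held the antioxidant core, as did 10.9% of all windows searched, and a role of this match was not tested. At an assumed coefficient of variation of 0.2, MXD1 remained called with the combination, against the control and against trametinib, and not with NBT alone.

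MXI1 and MXD4, MXD family antagonists found in many resting cells, were highest in the combination library. MXI1 had 221, 280, 275 and 434 reads in the control, NBT, trametinib and combination libraries. Its log2 ratios against the control were 0.29 (NBT), 0.30 (trametinib) and 0.91 (combination, from 0.67 to 1.15). The window of MXD4, like those of MNT and MLX, holds an E-box, and a role of this match was not tested. MXD4 had 191, 238, 280 and 393 reads in the same order, with log2 ratios of 0.27, 0.54 and 0.98 (from 0.72 to 1.23). Both genes were thus close to the limit of 1 in the combination and were not called.

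MXD3, an antagonist that is unusual in being expressed in dividing cells, followed trametinib in the other direction from MYC. Its reads numbered 362 (control), 300 (NBT), 657 (trametinib) and 410 (combination). The trametinib library stood alone at the top, with a log2 ratio of 0.85 (from 0.66 to 1.04), and the combination library lay near the control (0.12, from -0.09 to 0.32). In the combination against trametinib the log2 ratio was -0.73 (from -0.91 to -0.55), where that of MYC was 1.73, and neither MXD3 value reached the limit of 1.

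MNT, the broadly expressed antagonist that sets the background against which MYC acts, had 827, 880, 1011 and 1026 reads in the control, NBT, trametinib and combination libraries. The 2 libraries with trametinib were the higher ones, with log2 ratios of 0.28 and 0.25 against the control. MGA, the largest protein of the network, had 1101, 1030, 825 and 963 reads and was lowest with trametinib (log2 ratio -0.43, from -0.56 to -0.30). None of these ratios reached the limit.

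In the MLX arm, MLX had 1915, 1814, 1367 and 1305 reads in the control, NBT, trametinib and combination libraries. Both trametinib libraries were lower than both others, with log2 ratios against the control of -0.50 (from -0.60 to -0.40) and -0.62 (from -0.72 to -0.51). MLXIP had 1962, 1766, 1991 and 1929 reads, and its largest log2 ratio against the control was that of -0.20 with NBT. Of the related genes outside the 10, MYCL, a paralog of MYC, had 31, 46, 68 and 70 reads. It was called higher than in the control with trametinib (log2 ratio 1.11, from 0.49 to 1.78) and with the combination (1.10, from 0.48 to 1.77). Of all genes tested, 3.85% and 4.89% were called higher there, and both MYCL calls share the 31 reads of the control library. MLXIPL had 16 reads or fewer in every library. Both fall outside the naming rule and were named after their values were seen, and MYCN was not found among the 16834 genes.

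**Figure D2:**
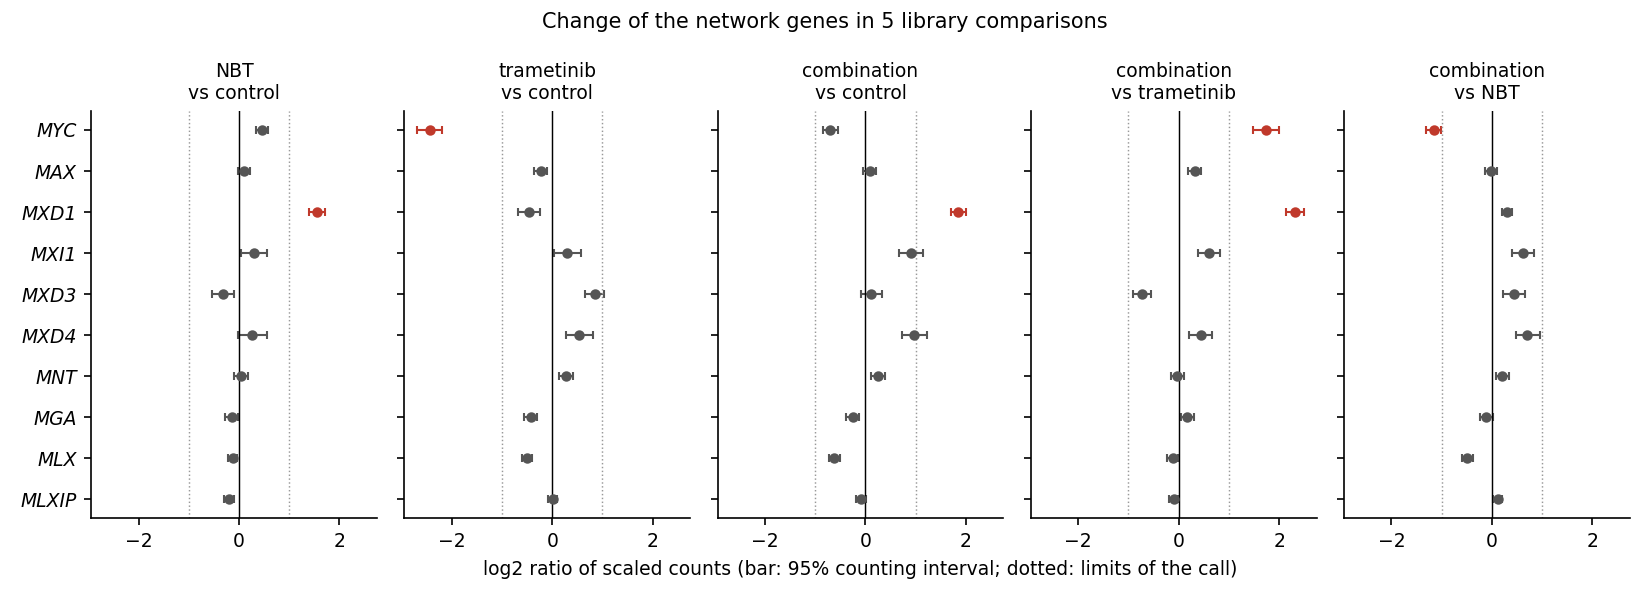
Log2 ratio of scaled counts of each network gene (points) with 95% counting intervals (bars) in 5 comparisons of 2 libraries, red where the gene was called and dotted lines at the limits of -1 and 1. MYC is called in the trametinib panel and in both panels without the control, MXD1 in the NBT and combination panels and against trametinib, and no other member is called.

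On the TPM scale, which accounts for gene length, MLX (85.6 TPM) and MAX (61.5 TPM) led the network in the control, followed by MXD3 (31.2 TPM), MYC (25.5 TPM) and MLXIP (25.4 TPM). The counting intervals of MYC and MLXIP overlapped there, and those of MYC and MXD3 did not. With trametinib, MYC had the lowest level of the 10, and its interval (from 3.98 to 5.40 TPM) overlapped that of MXD1 (from 5.22 to 6.52 TPM). MXD3 (59.1 TPM) then stood beside MLX (59.7 TPM) with overlapping intervals. MXD1 moved from the eighth place in the control to the fourth with NBT and with the combination. With NBT its interval overlapped those of MXD3 and MLXIP. With the combination its interval (from 27.3 to 30.1 TPM) overlapped that of MXD3 (from 29.8 to 36.3 TPM).

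The level of MYC was then set against that of its antagonists within each library, a ratio that does not depend on how libraries are scaled to each other. The summed TPM of MXD1, MXI1, MXD3, MXD4 and MNT was 67.7, 75.6, 100.1 and 104.0 in the 4 libraries. MYC RNA amounted to 0.376 of this sum in the control (from 0.346 to 0.410) and 0.444 with NBT (from 0.414 to 0.476). With trametinib it amounted to 0.0464 (from 0.0396 to 0.0544), and 0.146 with the combination (from 0.134 to 0.160). The ratio was therefore 8.11-fold lower with trametinib than in the control and 2.57-fold lower with the combination. In the combination against trametinib the ratio was 3.15-fold higher by TPM (log2 change 1.66, from 1.40 to 1.92), and by estimated counts, in which the antagonists are weighted by length, the log2 change was 1.17.

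The antagonists behind this sum differed between the 2 libraries with trametinib. MXD3 made up 59.0% of the antagonist TPM with trametinib alone and 31.7% with the combination, and MXD1 made up 5.83% and 27.6%. In the control the shares were 46.1% for MXD3 and 12.0% for MXD1, and with NBT 29.5% and 30.2%. MYC exceeded MXD1 3.12-fold in the control and 1.47-fold with NBT, and fell below it with trametinib (0.796 times) and with the combination (0.532 times). MXD1 was thus the only antagonist of the 5 for which the ratio of MYC was lower in the combination than with trametinib alone (log2 change -0.58, from -0.88 to -0.28), and for the other 4 it was higher by 1.11 (MXI1) to 2.55 (MXD3) on the log2 scale. With NBT against the control, the direction for the summed antagonists depended on the unit, since the log2 change was 0.24 by TPM (from 0.08 to 0.40) and -0.06 by estimated counts.

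**Figure D3:**
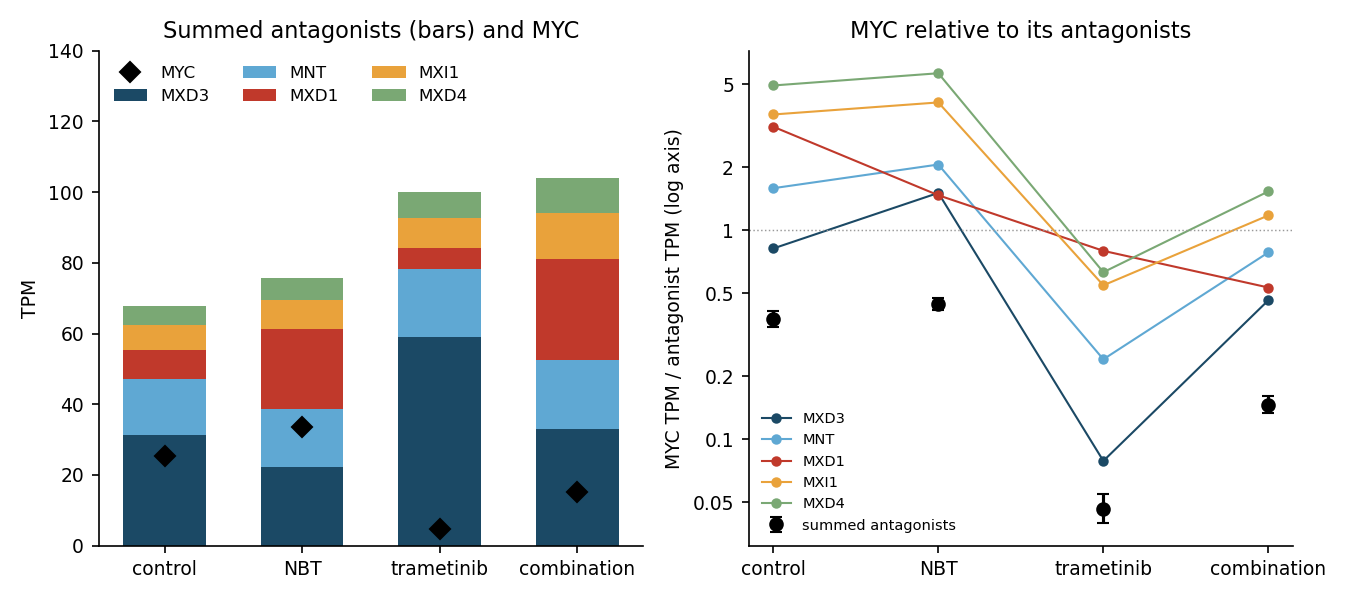
Left, TPM of the 5 antagonists stacked as bars and TPM of MYC as diamonds in each library, and right, MYC TPM divided by the TPM of each antagonist (colored points, lines join the values of a gene) and by their sum (black points with 95% counting intervals), on a log axis. The ratio to the sum drops from 0.376 in the control to 0.0464 with trametinib, and MXD1 is the only antagonist whose line goes down from trametinib to the combination.

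Whether the combination matched the sum of the log2 changes of the single drugs was described for each member. For MYC the single drugs summed to -1.98 and the combination had -0.70, a departure of 1.28 (from 1.00 to 1.55), that is a level 2.42-fold above the additive one. For MXD1 the sum was 1.09 and the combination 1.85, a departure of 0.76 (from 0.52 to 0.99). Both genes were thus higher in the combination than additive changes give, although one opposes the other. MXD3 departed downwards by -0.41 (from -0.69 to -0.13), MGA upwards by 0.32 (from 0.14 to 0.50) and MAX by 0.21 (from 0.04 to 0.39), and the intervals of MXI1, MXD4, MNT, MLX and MLXIP included 0. Over 10658 genes with at least 100 reads in some library and a read in each, the median departure was -0.02, the 5th and 95th percentiles were -0.55 and 0.44, and 1.604% of the genes departed by at least 1 in either direction.

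**Figure D4:**
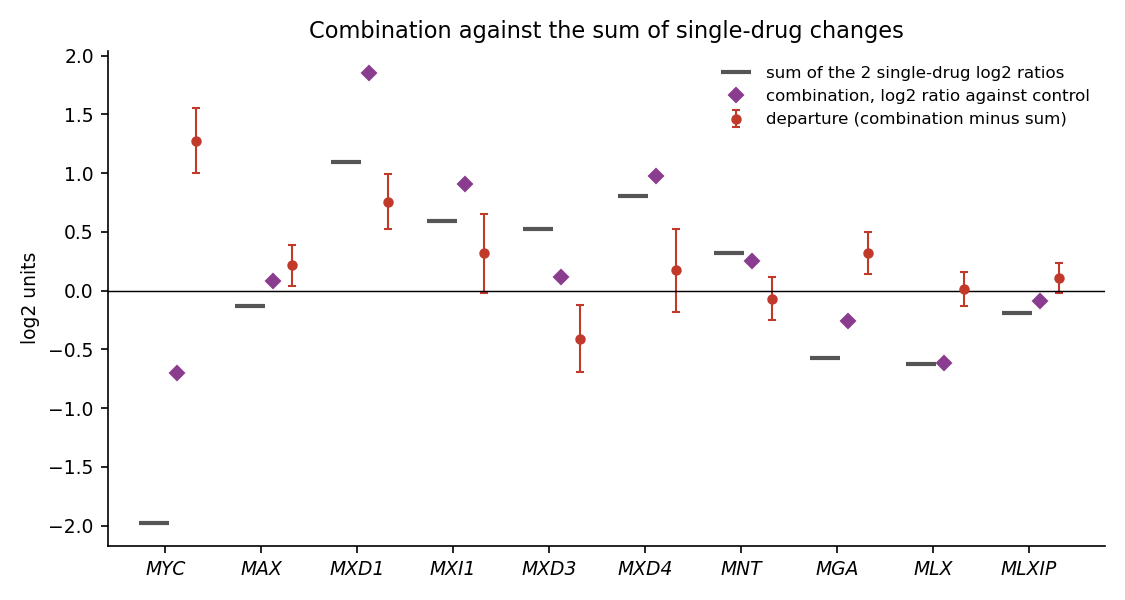
For each network gene, the sum of the 2 single-drug log2 ratios against the control (grey dashes), the log2 ratio of the combination (diamonds) and their difference with its 95% counting interval (red points and bars). MYC has the largest difference (1.28), followed by MXD1 (0.76), and the intervals of 5 genes include 0.

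The genes nearest to MYC in pattern were sought by the distance between their 3 log2 ratios against the control and those of MYC, among 7153 genes with at least 500 reads in the control. The nearest was MAFF, a small MAF factor, at a distance of 0.34 log2 units, with 598, 839, 139 and 412 reads in the control, NBT, trametinib and combination libraries. It was followed by PLAUR, the urokinase receptor (0.45), the cytokine LIF (0.52), the forkhead factor FOXD1 (0.71) and CDC42EP1 (0.74). The median distance of all these genes was 2.61, and the pattern rests on 4 libraries.

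Genes that MYC is known to activate were taken as a list of 33, all in the table. With trametinib 30 of them had a log2 ratio below 0, with a median of -0.39 against 0.08 for all genes tested, and 2 were called lower (CCND2 and TERT), where 2.28% of all genes were. With the combination 31 were below 0, with a median of -0.53 against 0.05, and 4 were called lower (CCND2, LDHA, TERT and TFAP4), where 3.83% of all genes were. The 4 became 5 with TMM or median-of-ratios scaling and 6 with TPM. With NBT alone 28 were below 0, with a median of -0.17 against -0.01, and none was called lower, where 1.13% of all genes were, in the library in which MYC itself was highest. In the combination against trametinib, where MYC was 3.32-fold higher, 24 were below 0 with a median of -0.15 against -0.05, and LDHA was the 1 gene called lower, where 3.73% of all genes were. In the combination against NBT, where MYC was 2.23-fold lower, 32 were below 0, with a median of -0.36 against 0.03. TERT was the 1 gene called lower there, where 2.16% of all genes were. TERT, the telomerase gene, had 98, 100, 41 and 42 reads in the 4 libraries, and the NBT library alone reached the 100 reads set for naming. The list shares LDHA with hypoxia and glycolysis programs, and CCND2 is also controlled by growth factor signaling.

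Among these targets, CCND2, a G1 cyclin, had 6976, 4052, 2308 and 2151 reads. It was lower in each drug library, by a log2 ratio of -1.61 with trametinib and -1.76 with the combination. LDHA, the lactate dehydrogenase subunit of glycolysis, had 37054, 25575, 33889 and 16065 reads and was lowest with the combination (-1.27). TFAP4, a MYC-induced transcription factor, had 816, 686, 502 and 420 reads (-1.02 with the combination). The order of these 3 genes across the libraries differed from that of MYC, which was higher with the combination than with trametinib.

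Of 9 genes that MYC is known to repress, none was called lower in any of the 5 comparisons. Of all genes tested, from 1.13% (NBT) to 3.83% (combination) were called lower, so with so few genes a count of 0 lies near the background. With the combination 5 of the 9 were called higher, against 4.89% of all genes tested. They were GADD45A, GADD45G, CDKN1A, NDRG1 and CDKN2B, and GADD45G, with at most 97 reads, was named after its values were seen. The median log2 ratio of the 9 genes was 1.19 with the combination, 0.61 with trametinib and 0.04 with NBT, against 0.05, 0.08 and -0.01 for all genes. Of the 9 genes, 2 (CDKN1C and NDRG2) had 3 reads or fewer in each library. CDKN1A, which encodes the CDK inhibitor p21 and is also a p53 target, had 550, 958, 1907 and 2294 reads. GADD45A, a growth arrest gene of stress and DNA damage, had 382, 790, 701 and 1951 reads. NDRG1, a stress gene that also answers to hypoxia and iron, had 2157, 4832, 3142 and 7775 reads. CDKN2B, the CDK inhibitor p15, had 106, 71, 426 and 253 reads and was highest with trametinib alone. CDKN1A and CDKN2B were called higher with trametinib, where 3.85% of all genes were, and NDRG1 and GADD45G with NBT, where 1.63% were. In the combination against trametinib, where MYC was 3.32-fold higher, GADD45A, GADD45G and NDRG1 were called higher, against 2.64% of all genes. Of the 8 genes tested there 3 were below 0, and the median was 0.69 against -0.05. Against NBT, CDKN1A, CDKN2B, GADD45A and GADD45G were called higher, where 2.38% of all genes were, with a median of 1.25 against 0.03. Whether the drugs differ in these genes was not tested. CDKN1A (0.75, from 0.60 to 0.90) and GADD45A (0.997) also had log2 ratios above 0 with NBT, as did NDRG1 (0.53, from 0.45 to 0.61) and GADD45A (0.86) with trametinib, short of the limit.

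**Figure D5:**
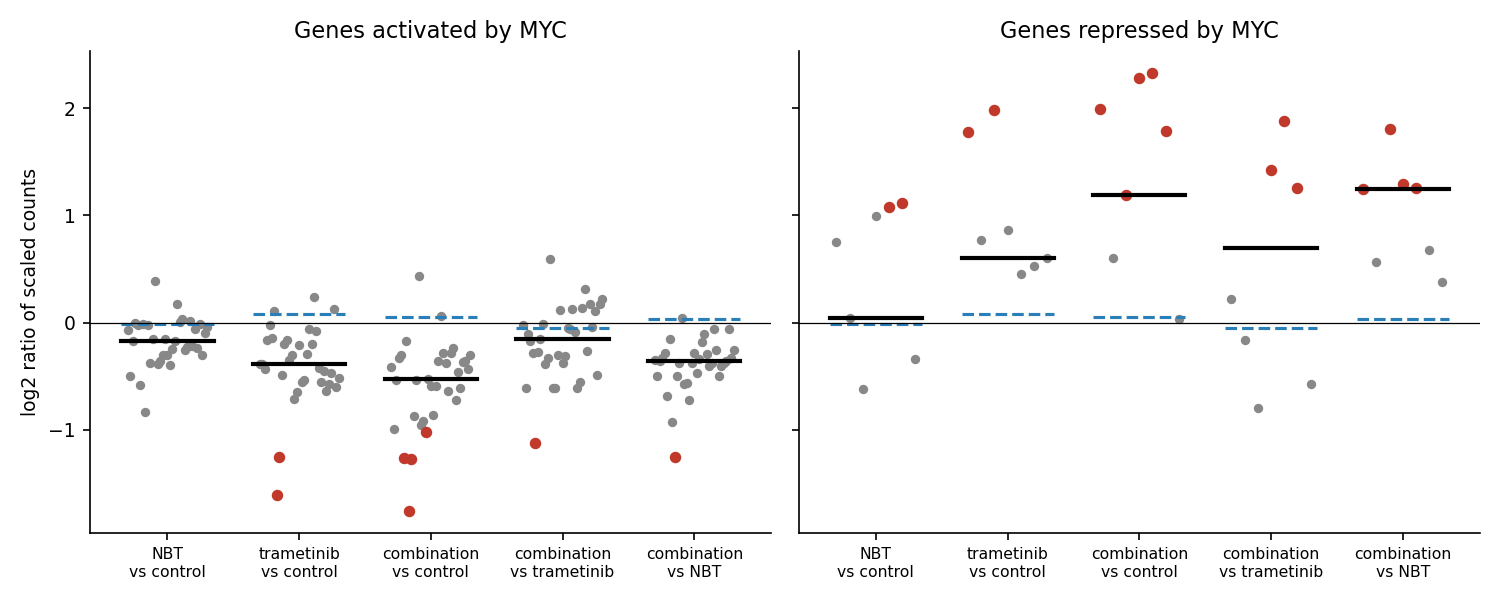
Log2 ratio of scaled counts of genes that MYC is known to activate (left) or repress (right) in 5 comparisons of 2 libraries, with called genes in red, the list median as a black line and the median of all genes tested as a dashed blue line. Genes under 10 reads in both libraries are not drawn but count in the median, and with the combination against the control the medians are -0.53 (left) and 1.19 (right).

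The complexes that work with the network were counted in the same way. Of 15 genes of the SIN3 and histone deacetylase corepressor none was called in any comparison, where from 2.76% (NBT) to 8.72% (combination) of all genes were called, so that with so few genes a count of 0 lies near the background. Their median log2 ratios lay between -0.21 and 0.14. Of 9 genes of the MGA complex none was called either with library-sum scaling. Of 18 genes for MYC cofactors and MYC turnover, SKP2 was called, as lower with the combination against the control (log2 ratio -1.22) and against trametinib (-1.21), where 3.83% and 3.73% of all genes were called lower. SKP2, a ubiquitin ligase subunit that binds MYC and removes the CDK inhibitor p27, had 1892, 1429, 1899 and 851 reads. KAT2A, a histone acetyltransferase recruited by MYC, had 2605, 1928, 1987 and 1369 reads and came near the limit with the combination (-0.99). TFDP1, a partner of E2F6 in the MGA complex, had 4759, 3879, 4131 and 2514 reads (-0.98 with the combination). KAT2A and TFDP1 were named after their values were seen, and with TMM, median-of-ratios or TPM scaling each list had 1 more gene called lower with the combination.

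For the MLX arm, none of the 6 target genes was called in any comparison, where from 2.76% to 8.72% of all genes were, and 4 of the 5 comparisons could test only 5 of them. The genes named here were picked after their values were seen. ARRDC4, a glucose-responsive arrestin-like gene, had 343, 440, 349 and 684 reads in the control, NBT, trametinib and combination libraries (log2 ratio 0.93 with the combination). TXNIP, the best known target of MLXIP, had 0, 0, 4 and 5 reads, too few for a comparison, and PKLR had 1 read in the NBT library and 0 in the others. A count of 0 in the control allows a level of up to 0.160 CPM.

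The transcript table divided the reads of each gene between RefSeq transcripts, an estimate for which no error is used here. For MYC, NM_002467.6 took from 94.2% to 97.6% of the gene's TPM in every library. For MXD1, NM_002357.4 took 96.1% or more. For MXI1, NM_005962.5 made up 66.6%, 84.8%, 89.8% and 96.1% in the 4 libraries, and its own level was 4.74 TPM in the control and 12.5 TPM with the combination. For MAX, NM_145112.3 made up 32.2%, 29.4%, 29.1% and 20.2% and NM_002382.5 47.4%, 49.1%, 46.8% and 57.2% in the control, NBT, trametinib and combination libraries. For MNT, NM_020310.3 held 52.8% in the control and 18.8% with the combination, where the predicted transcript XM_011523868.2 had 46.9%, although the count of the gene differed by a log2 ratio of only 0.25.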

How the data were processed

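RNA-seq was analysed in 4 libraries, 1 per condition. For 16834 genes and 70268 RefSeq transcripts, the authors deposited a raw estimated count of reads, and beside it TPM and FPKM, which they scaled to length and depth. The submitters' processing notes name Bowtie2 2.2.5, RSEM 1.2.8 and hg38. For 53.9% of the genes at least 1 count was fractional. The labels give a different cell line number in each library, whereas the titles name MIA PaCa-2 throughout. Ribosomal RNA was removed, per the labels, with a kit made for bacteria.

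Estimated counts were rounded and scaled to the library sums, which were between 18776247 and 19614809. Log2 ratios were computed with 0.5 reads added. Genes with at least 1 read in either library were tested with an exact two-sided binomial test, Benjamini-Hochberg adjusted, and called at 0.05 and an absolute log2 ratio of 1, in 5 comparisons fitted on all genes. Ratios of counts have 95% Clopper-Pearson intervals, levels have exact Poisson intervals, and the ratios of MYC to antagonist TPM and the departures from additivity have intervals from the delta method. All intervals cover counting error only, since each condition has 1 library. They treat reads as independent, although PCR copies are not independent molecules.

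The members and gene lists were chosen with earlier results of these data known. Named genes were the 10 members, called genes of the lists with at least 100 reads (at most 5 per list and comparison), the 5 genes nearest to MYC, and transcripts with at least 5% of a member's TPM. The calls and intervals were tested on data simulated with the Poisson counting model that they assume. The simulation held no variation between cultures, so it cannot show how the calls behave under such variation. Alternatives were TMM (edgeR 4.0.16) and DESeq2 1.42.0 scaling, TPM with a pseudocount of 0.1, 5 added reads, summed transcript counts, a limit of 10 reads, other log2 limits, other antagonist sums, and edgeR negative binomial tests with assumed coefficients of variation of 0.2 and 0.4. R 4.3.3, Python 3.11.15, scipy 1.17.1 and statsmodels 0.14.6 were used. Gene positions and promoter windows are from RefSeq (GRCh38.p14), and starts were matched within 500 bases to GENCODE transcripts for 9 of the 10 members.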

Additional observations from a re-analysis of the deposited data

Results flagged for a closer look

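The effect of trametinib on MXD1 pointed in opposite directions without and with NBT. Against the control, trametinib alone gave a log2 ratio of -0.46 (95% counting interval from -0.67 to -0.25), and in the combination against NBT the log2 ratio was 0.30 (from 0.19 to 0.40). The effect of NBT on MGA also turned, from -0.15 against the control (from -0.27 to -0.02) to 0.17 in the combination against trametinib (from 0.04 to 0.31). With 1 library per condition neither difference was tested.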

How the results depend on the processing

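No paired analysis was possible because each condition has 1 library. With 5 added reads, summed transcript counts, the limit of 10 reads, or scaling by TMM, median-of-ratios or TPM, the members called were the same in all 5 comparisons. They depended on the limit and on the assumed variation. Without a log2 limit 5 members were called with NBT, 8 with trametinib, 7 with the combination, 7 in the combination against trametinib and 8 against NBT, and with a limit of 0.5 the counts were 3 with trametinib, 5 with the combination, and 4 and 3 in the last pair of comparisons. With a coefficient of variation of 0.2 no member was called with NBT or in the combination against NBT, and with 0.4 the count was 0 in each comparison. Over all genes, 439, 993, 1416, 1041 and 738 were called in these 5 comparisons, against 69, 365, 547, 302 and 204 at 0.2, 4, 22, 51, 14 and 13 at 0.4, 1503, 2483, 3747, 3049 and 1923 with a limit of 0.5, and 5701, 6991, 8132, 7510 and 6160 without one. By estimated counts, which give the long MXD1 transcript more weight than the short MXD3 transcript, the log2 change of MYC against the summed antagonists was -0.060 with NBT, where the sign turned, -2.75 with trametinib, -1.58 with the combination and 1.17 in the combination against trametinib. Adding MGA, leaving out MNT and summing transcripts moved it by less than counting error. Log2 ratios near 0 changed sign for MLXIP with trametinib (-0.047 by TMM, -0.058 by median-of-ratios), for MNT in the combination against trametinib (0.0025, 0.0019 and 0.013 by TMM, median-of-ratios and TPM) and for MAX in the combination against NBT (0.056 by TPM). Of the genes repressed by MYC, 2 were called higher with NBT, against 1 with 5 added reads and 3 with TMM. No departure from additivity moved beyond counting error.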
